A study of Sus scrofa with 12 samples.

Results

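The fast myosin heavy chain cluster on chromosome 12 of the pig was examined for open chromatin in longissimus dorsi muscle from boars of the Duroc and Luchuan breeds. The list of the cluster held 6 genes, MYH1, MYH2, MYH3, MYH4, MYH8 and MYH13, of which 3 were placed on Sscrofa11.1 by their symbols in the RefSeq annotation. MYH4 lay from 55190545 to 55216294, MYH1 from 55225581 to 55251495 and MYH2 from 55252974 to 55278820. MYH3, MYH8 and MYH13 were listed with an Ensembl identifier alone, so they were not placed here and have no values. Open regions were taken with their midpoint from 20 kb below MYH4 to 20 kb above MYH2, which is 55170545 to 55298820. This window held 90 of the 217213 deposited peak intervals, which gave 57 of 140081 regions after intervals called in both breeds had been merged.

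ATAC-seq, in which a transposase cuts accessible DNA, was performed on 3 Duroc and 3 Luchuan boars aged 180 days, raised alike. Luchuan is an obese breed from China and Duroc is a lean breed. The deposited table gave 1 read count per interval and breed, which was taken to pool the 3 boars, so none of the values has an error between animals and no test between breeds was made. The mRNA libraries were not analysed here. Brackets give 95% intervals for counting error only, since 1 count per breed holds no spread between boars. They take each read as a separate molecule, which the reads need not be, so they may be too narrow.

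Myosin heavy chain is the motor of the thick filament, and its isoform sets how fast a muscle fiber contracts. MYH4 encodes the fastest adult isoform, type 2B, MYH1 encodes type 2X, and MYH2 encodes type 2A of the slower, more oxidative fast fibers. MYH3 and MYH8 encode the embryonic and perinatal isoforms, and MYH13 that of extraocular muscle. The longissimus of pigs is rich in fibers with the type 2B isoform. In mammals these genes lie side by side, and in the mouse an enhancer region between the embryonic and the type 2A gene is known to act on the adult fast genes.

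All regions together held 20760304 Duroc reads and 13746420 Luchuan reads. Luchuan counts were multiplied by 1.48, which sets the median log2 ratio of regions called in both breeds to 0, and are then named scaled reads. The log2 ratio is that of scaled Luchuan to Duroc reads with 1 added to each, so that it is below 0 where Duroc was higher. Skeletal muscle was checked by the strongest region at each of 8 genes. From ACTA1 to RYR1 these held 982 to 1298 Duroc reads per kb and 867 to 1309 scaled Luchuan reads per kb, at or above the 97.3 percentile of all regions in both breeds. At 14 marker genes of satellite cells, adipocytes, endothelium, leukocytes, fibroblasts and other organs, the strongest regions reached at most 611 Duroc and 554 scaled Luchuan reads per kb. CDH5 of endothelium and ALB of liver had no region.

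The cluster held more reads in Duroc, and the lowest ratios of Luchuan to Duroc were inside MYH4. The 57 regions held 14919 Duroc reads and 6932 Luchuan reads, which scale to 10266, and the log2 ratio of the sums was -0.54 (-0.58 to -0.50). The median log2 ratio of the regions was -0.54, against -0.02 over all regions of the genome. The value was below 0 in 51 of the 57 regions, or 89.5%, and above 0 in 6, against 71816 and 68265 of all 140081 regions. In 11 regions, or 19.3%, the signal was at least 2-fold higher in Duroc, against 5.66% of all regions and 5.34% of those with 50 or more reads, a depth that all 57 reached. In 0 regions was it at least 2-fold higher in Luchuan, against 7.2% of all regions. The counting interval lay wholly below 0 in 34 regions, or 59.6%, against 15.4% of all regions, and wholly above 0 in 2, or 3.51%, against 13.6%. These shares are not matched for depth, and the median region of the cluster held 203 reads, against 100 over all regions. On chromosome 12 as a whole the median log2 ratio was -0.10. There the interval lay wholly below 0 in 961 of 5175 regions and wholly above 0 in 430.

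All 11 regions past 2-fold were inside MYH4. Without the MYH4 body the other 39 regions had a summed log2 ratio of -0.35 (-0.40 to -0.30) and a median of -0.37, and 0 of them passed 2-fold in either direction. By how a region was called, 28 of the 57 were common to both breeds, or 49.1%, the same share as over all regions. Another 23, or 40.4%, were called in Duroc only, against 31.8% of all regions, and 6, or 10.5%, in Luchuan only, against 19.1%. In bulk muscle, fewer nuclei of a fiber type and less open chromatin per nucleus cannot be told apart.

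**Figure D1:**
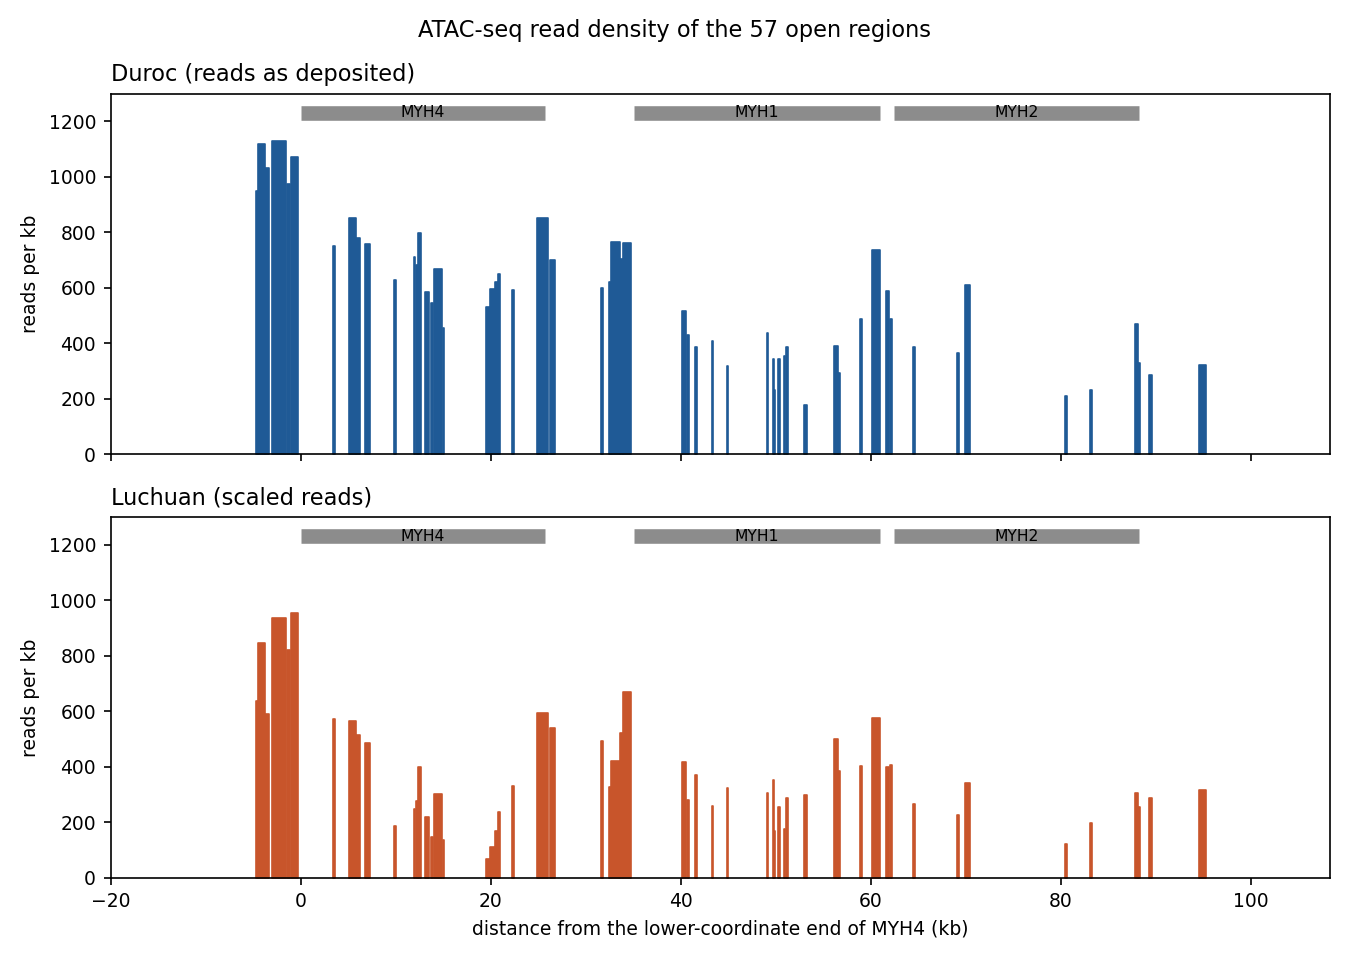
ATAC-seq reads per kb (y axis) of each of the 57 regions against the distance from the lower-coordinate end of MYH4 in kb (x axis), for Duroc reads as deposited (top) and scaled Luchuan reads (bottom), with gene bodies as grey bars. Each filled block is 1 region drawn at its length. The blocks just below MYH4 include the highest in both breeds. In the middle of MYH4 the regions held 627 Duroc and 215 scaled Luchuan reads per kb.

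The 3 genes are nearly equal in length, 25.8 kb for MYH4 and MYH2 and 25.9 kb for MYH1, but differed in how much of the gene body was open. Open regions covered 29.0% of MYH4 in 18 regions, 15.9% of MYH1 in 16 regions and 6.92% of MYH2 in 7 regions. In Duroc, MYH4 held 204 reads per kb of gene, MYH1 held 70.8 and MYH2 held 28.8. In Luchuan, the scaled reads per kb of gene were 104 for MYH4, 61.4 for MYH1 and 18.3 for MYH2. The order of the genes by this level was therefore the same in both breeds, and neighbours in the order differed beyond counting error.

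The distance between the genes was not the same in both breeds. MYH4 had 2.88 times the reads per kb of MYH1 in Duroc (2.73 to 3.04) and 1.70 times in Luchuan (1.58 to 1.83), values that do not depend on the scaling between breeds. Against MYH2, MYH4 was 7.10 times as high in Duroc (6.57 to 7.66) and 5.70 times in Luchuan (5.06 to 6.42). MYH1 against MYH2 went the other way, with 2.46 times in Duroc (2.26 to 2.68) and 3.35 times in Luchuan (2.96 to 3.80). Of the 3 genes, MYH1 thus had the highest ratio of Luchuan to Duroc and MYH4 the lowest. Which gene differed least between breeds rests on the scaling, and it was MYH1 under each scaling that was run.

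MYH4, the type 2B gene, had 5261 Duroc reads and 1816 Luchuan reads, which scale to 2690. Its summed log2 ratio was -0.97 (-1.05 to -0.89), a level 1.96 times as high in Duroc. All 18 regions were below 0, against 71816 of all 140081. The counting interval of each of the 18 lay wholly below 0, against 15.4% of all regions. These shares are not matched for depth or calling. The median region of MYH4 held 258 reads, against 100 over all regions. Of the 18, 8 were called in Duroc only, 9 in both breeds and 1 in Luchuan only. Of 464 protein-coding genes with at least as many reads inside the gene, 1 had a lower ratio, KIRREL3 on chromosome 9 with -1.26, and the median of the 464 was -0.04. KIRREL3 was named after its value was seen.

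The difference was greatest in the middle of MYH4. From 55200360 to 55211565 lay 12 consecutive regions with log2 ratios from -2.90 to -0.99, a stretch of 11.2 kb that was marked off after its values had been seen. Of these, 8 were called in Duroc only and 4 in both breeds. The stretch was picked for its low ratios, so these calls cannot be weighed against the shares over all regions. The stretch held 2565 Duroc reads and 593 Luchuan reads, which scale to 878. Per kb of open region it held 627 Duroc and 215 scaled Luchuan reads, and the other 6 regions of MYH4 held 801 and 538.

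The largest difference was in the region from 55209999 to 55210509, which counted 272 reads in Duroc and 24 in Luchuan, at a log2 ratio of -2.90 (-3.60 to -2.33). Of 32150 regions of the genome with at least as many reads, 11 had a lower ratio. The region was chosen as the lowest of the 57, so this rank follows from the choice. The region held 532 reads per kb in Duroc and 69.6 scaled reads per kb in Luchuan.

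Beside it, the region from 55210511 to 55211025 gave 306 reads in Duroc and 39 in Luchuan, for a log2 ratio of -2.39 (-2.93 to -1.92). The next, from 55211033 to 55211294, gave 163 reads in Duroc and 30 in Luchuan, for a log2 ratio of -1.85 (-2.49 to -1.31). These 3 regions adjoin each other almost without a gap and were called in Duroc only.

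A second group of low ratios lay from 55202429 to 55205631, near the center of the gene. Its region with most reads, from 55204527 to 55205437, was common to both breeds, with 607 Duroc and 185 Luchuan reads and a log2 ratio of -1.14 (-1.39 to -0.91). Of 11521 regions with at least as many reads, 16 had a lower ratio, a rank that likewise follows a choice by low ratios. The region from 55204218 to 55204431 gave 117 reads in Duroc and 21 in Luchuan, for a log2 ratio of -1.88 (-2.66 to -1.23). The remaining 6 regions past 2-fold lay between -1.71 and -1.29. Just short of the threshold was the region from 55202904 to 55203254, with 280 Duroc and 95 Luchuan reads and a log2 ratio of -0.99 (-1.34 to -0.65).

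The ends of MYH4 differed less. The annotation used here gives no strand, so both ends of a gene are described, and exons, introns and untranslated parts were not separated. Across the end with the higher coordinate lay the region of MYH4 with most reads, from 55215424 to 55216615, with 1016 Duroc and 478 Luchuan reads. Its log2 ratio was -0.52 (-0.68 to -0.36). The regions inside the gene and more than 1 kb from an end had a summed log2 ratio of -1.10 (-1.19 to -1.01), and the inner regions minus the end region gave -0.58 (-0.76 to -0.40). Toward the end with the lower coordinate, the 4 regions from 55193897 to 55197814 had log2 ratios from -0.64 to -0.40. The one nearest to that end, from 55193897 to 55194114, gave 164 reads in Duroc and 84 in Luchuan and was called in Luchuan only, although its log2 ratio was -0.40 (-0.80 to -0.01).

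**Figure D2:**
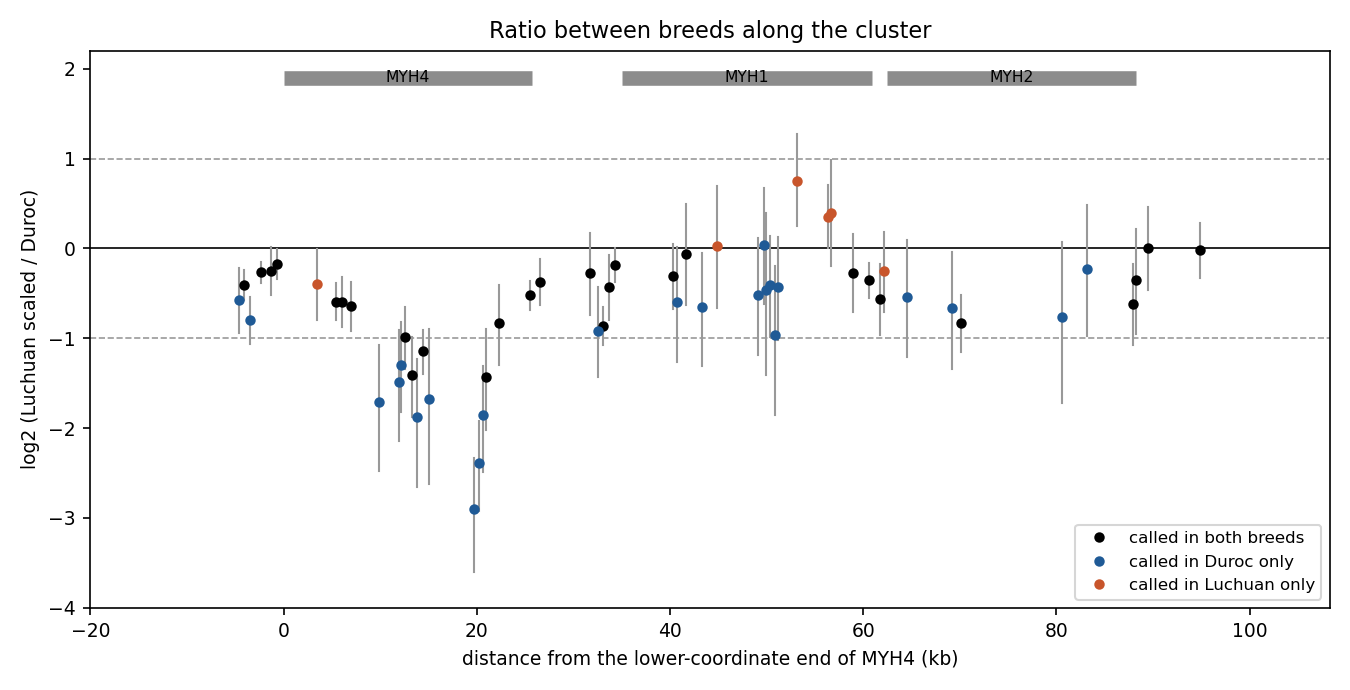
Log2 ratio of scaled Luchuan to Duroc reads (y axis) of the 57 regions against the distance from the lower-coordinate end of MYH4 in kb (x axis), with 95% counting intervals as grey lines, 2-fold differences as dashed lines and colors for the breed in which the peak was called. The points fall to -2.90 inside MYH4 and rise to 0.75 inside MYH1.

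MYH1, the type 2X gene, differed least of the 3 genes between the breeds. It had 1836 Duroc reads and 1075 Luchuan reads, which scale to 1592, and a summed log2 ratio of -0.21 (-0.32 to -0.10). Of its 16 regions, 11 were below 0, or 68.8%, against 71816 of all 140081, and 5 above. The counting interval lay wholly below 0 in 3, or 18.8%, and wholly above 0 in 2, or 12.5%. These shares were close to the 15.4% and 13.6% of all regions. Of the 16 regions of MYH1, 8 were called in Duroc only, 4 in Luchuan only and 4 in both breeds. The log2 ratio of MYH4 minus that of MYH1 was -0.76 (-0.90 to -0.63). The log2 ratio of MYH1 minus that of MYH2 was 0.45 (0.23 to 0.66). These differences depended on how far a gene was taken to reach. With 2 kb added on both sides the summed log2 ratio was -0.77 for MYH4, -0.33 for MYH1 and -0.46 for MYH2, so that MYH4 minus MYH1 came to -0.44 and MYH1 minus MYH2 to 0.13. The widened windows of MYH1 and MYH2 share 3 regions. These differences were not taken over regions called in both breeds alone.

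The region of MYH1 with most reads spanned the end with the higher coordinate, from 55250695 to 55251546. It gave 628 reads in Duroc and 331 in Luchuan, for a log2 ratio of -0.36 (-0.55 to -0.16). Compared with the region at the same end of MYH4, the difference was within counting error, with MYH4 at -0.16 relative to MYH1 (-0.41 to 0.08). Between the inner regions of the genes the difference was -0.97 (-1.13 to -0.81). The division into ends and inner regions was made after the values had been seen.

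The only regions of the cluster with an interval wholly above 0 were 2 of the 16 in MYH1, or 12.5%, against 13.6% of all regions. The region from 55243519 to 55243874 gave 63 reads in Duroc and 72 in Luchuan, for a log2 ratio of 0.75 (0.25 to 1.27). The region from 55246698 to 55247074 gave 147 reads in Duroc and 127 in Luchuan, for a log2 ratio of 0.35 (0.0015 to 0.71). Both were called in Luchuan only. Of the Duroc-called regions in MYH1, the lowest ratio was -0.97 (-1.85 to -0.20), from 55241385 to 55241534, with 53 Duroc and 18 Luchuan reads.

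MYH2, the type 2A gene, was the least open of the 3 genes, with 744 Duroc reads and 320 Luchuan reads, which scale to 474. Its summed log2 ratio was -0.65 (-0.84 to -0.46). The ratio of all 7 regions was below 0, from -0.83 to -0.23, against 71816 of all 140081 regions. Of the 7, 4 were called in Duroc only and 3 in both breeds, and over all regions 31.8% were called in Duroc only. A call in Duroc only favors a ratio below 0, so these shares are not like for like. The counting interval lay wholly below 0 in 3 of the 7, or 42.9%, against 15.4% of all regions. The region with most reads lay from 55260471 to 55260968, with 303 Duroc and 115 Luchuan reads and a log2 ratio of -0.83 (-1.15 to -0.52). Across the end with the higher coordinate, the region from 55278703 to 55278927 gave 74 reads in Duroc and 39 in Luchuan, and its log2 ratio of -0.35 had an interval that included 0 (-0.96 to 0.22). The region beside it, from 55278362 to 55278662, had 141 and 62 reads and a log2 ratio of -0.61 (-1.07 to -0.18). The log2 ratio of MYH4 minus that of MYH2 was -0.32 (-0.52 to -0.11). It takes in regions called in Duroc only, 8 of 18 in MYH4 and 4 of 7 in MYH2. The difference was not taken over regions called in both breeds alone, so how far it rests on such calls was not tested.

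**Figure D3:**
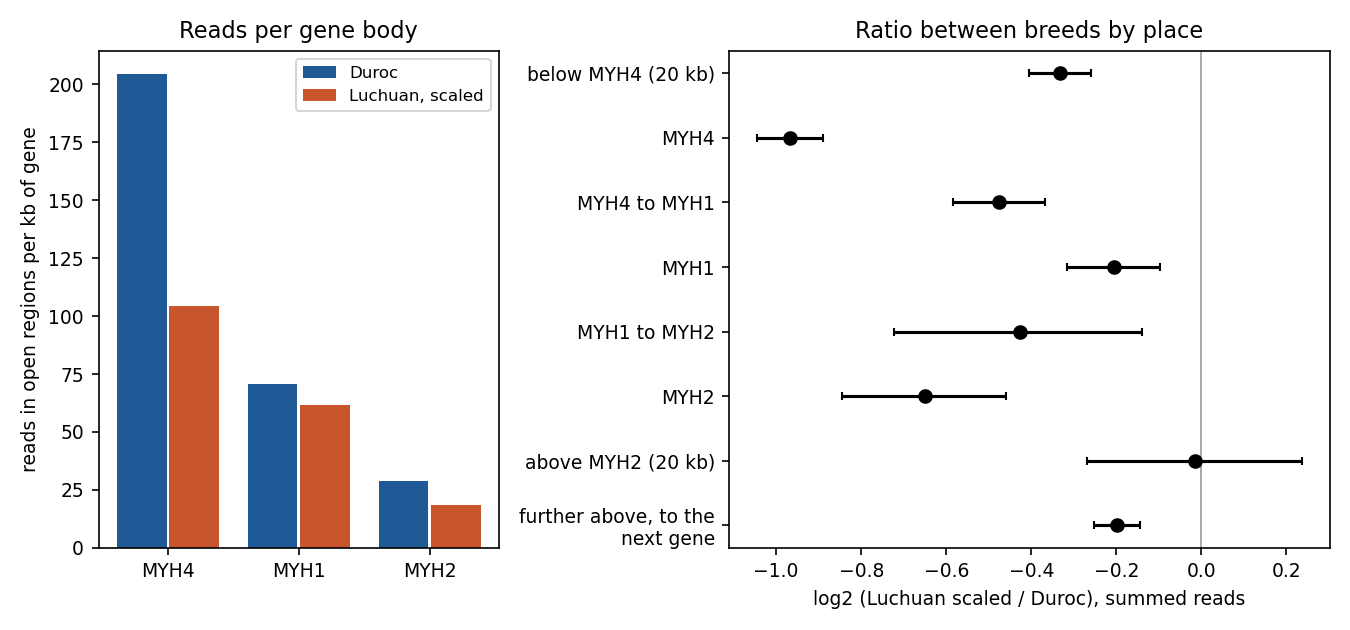
Left, reads in open regions per kb of gene (y axis) for MYH4, MYH1 and MYH2, with Duroc reads as deposited and scaled Luchuan reads as bars and no error between animals. Right, log2 ratio of the summed reads (x axis) for each gene body and the spaces around them, with 95% counting intervals. MYH4 was lowest at -0.97, and the 20 kb above MYH2 lay at -0.01.

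The strongest open chromatin of the cluster was outside the genes, below the lower-coordinate end of MYH4. There 6 regions from 55185807 to 55190287 held 4325 Duroc and 2320 Luchuan reads, which is 1082 Duroc and 860 scaled Luchuan reads per kb of open region, against 417 and 409 over all regions of the genome. The region with most reads, from 55187494 to 55189001, gave 1701 reads in Duroc and 955 in Luchuan, and 100 regions of the genome had at least as many reads. Its log2 ratio was -0.27 (-0.38 to -0.15).

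Nearer to the gene, the region from 55189534 to 55190287 lay 258 bases from the end of MYH4, with 808 Duroc and 485 Luchuan reads and a log2 ratio of -0.17 (-0.34 to -0.01). The region from 55186035 to 55186797 had 852 and 435 reads and a log2 ratio of -0.40 (-0.57 to -0.23). The summed log2 ratio of the 6 regions was -0.33 (-0.41 to -0.26).

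Between MYH4 and MYH1, 6 regions covered 31.6% of the 9.29 kb. They held 2132 Duroc and 1035 Luchuan reads, and their summed log2 ratio was -0.48 (-0.58 to -0.37). The region from 55223211 to 55224097 gave 680 reads in Duroc and 253 in Luchuan, for a log2 ratio of -0.86 (-1.07 to -0.65). The region nearest to MYH1, from 55224431 to 55225262, lay 319 bases from the gene, with 633 and 377 reads and a log2 ratio of -0.18 (-0.37 to 0.01). Between MYH1 and MYH2, 2 regions had a summed log2 ratio of -0.43 (-0.72 to -0.14), of which the one nearest to MYH2 gave 120 reads in Duroc and 68 in Luchuan. In the 20 kb above MYH2, 2 regions had log2 ratios of 0.00 and -0.02, with intervals that included 0.

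Above MYH2, the next protein-coding gene was LOC396711, 72.3 kb away, and below MYH4 it was LOC110255887, 23.6 kb away. Neither carries a gene symbol in the annotation used here, and whether they are among the unplaced MYH3, MYH8 and MYH13 was not determined. If they are, the window leaves out part of the cluster, and the space above MYH2 lies inside it. The 52.3 kb from 20 kb above MYH2 to LOC396711 were added after the values had been seen. They held 21 regions with 7282 Duroc and 4285 Luchuan reads, at 840 Duroc and 732 scaled Luchuan reads per kb of open region, above the 681 and 469 of the window around the 3 placed genes. The summed log2 ratio was -0.20 (-0.25 to -0.14), and 0 of the 21 regions passed 2-fold. The region with most reads, from 55330667 to 55331738, gave 1133 reads in Duroc and 733 in Luchuan, for a log2 ratio of -0.06 (-0.20 to 0.07).

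The lowest ratio of this gap was -0.94 (-1.28 to -0.62), in the region from 55327597 to 55327918 with 294 Duroc and 103 Luchuan reads. The highest was 0.47 (0.26 to 0.68), in the region from 55347343 to 55347850 with 377 Duroc and 353 Luchuan reads, the one closest to LOC396711. Inside LOC396711 itself, 6 regions had a summed log2 ratio of 0.03 (-0.17 to 0.23). LOC110255887 had 1 region, with 61 Duroc and 31 Luchuan reads and a log2 ratio of -0.40 (-1.08 to 0.24).

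**Figure D4:**
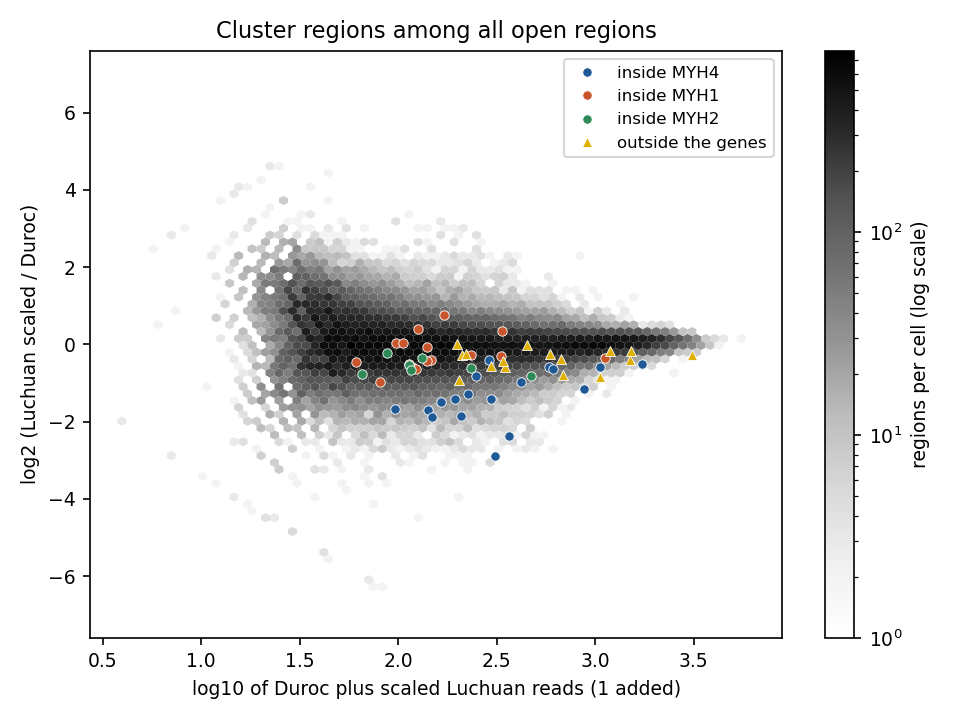
Log2 ratio of scaled Luchuan to Duroc reads (y axis) against the log10 of Duroc plus scaled Luchuan reads, with 1 added (x axis) for all 140081 regions, as grey cells shaded by the number of regions, with the regions of the cluster as colored points. The regions inside MYH4 reach down to -2.90, at the lower edge of the cloud, and those inside MYH1 and MYH2 or outside the genes lie between -0.97 and 0.75.

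Among the other myosin heavy chain genes, 7 of 8 were placed by symbol and MYH6 was not. Their 65 regions included 1 at least 2-fold higher in Duroc, or 1.54% against 5.66% of all regions, and 8 at least 2-fold higher in Luchuan, or 12.3% against 7.2%. The median region of MYH9, MYH10, MYH11, MYH14 and MYH15 held only 35 to 77 reads of both breeds. MYH7, the gene of the slow type 1 isoform on chromosome 7, had 5 regions with 964 Duroc and 403 Luchuan reads. Its summed log2 ratio was -0.69 (-0.86 to -0.52), and the interval of each region lay wholly below 0, against 15.4% of all regions. Of these 5 regions, 4 were called in Duroc only, against 31.8% of all regions, and 1 in both breeds. A call in Duroc only favors a ratio below 0, so the shares are not like for like. The log2 ratio of MYH7 minus that of MYH4 was 0.28 (0.09 to 0.46), and minus that of MYH2 it was -0.04 (-0.29 to 0.21). MYH7B, MYH9, MYH10, MYH11 and MYH14, of which the last 4 are smooth muscle and non-muscle myosins, lay between -0.06 and 0.12 with intervals that included 0. MYH15 was at 0.24 (0.02 to 0.46).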

How the data were processed

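Per the labels and the study's methods, the authors filtered reads with Trimmomatic (v0.36), used Bowtie2 for alignment to Sscrofa11.1 and MACS2 for peaks. Handling of duplicate reads and of reads that map to several genes is not given in the sources used here. MYH1, MYH2 and MYH4 are close paralogs, and the reference is a Duroc genome, and the part of either in the values was not tested. The deposited counts are whole numbers of reads, 1 for each interval and breed. Columns with a rescaled log2 ratio, a log2 signal and a p-value, which the authors also deposited, hold their own comparison and were not used.

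Starts were read as counted from 0, since the shortest interval is then 150 bases, and are printed counted from 1. Where common intervals overlapped or adjoined, the longest stood for the merged region. A region belonged to the gene body holding its midpoint. Each ratio's interval comes from the exact (Clopper-Pearson) interval of Luchuan's part of the reads, and those of a difference between ratios, or of a ratio between genes, are normal approximations on the log scale. Members and lists were chosen with earlier results of these data known. The text names each placed gene, its regions at the ends, with most reads and past 2-fold, the 3 strongest regions between genes and, in either direction, up to 3 regions whose interval lies farthest from 0. Of the 11 regions past 2-fold, 6 are given by their range. The median depth was 203 reads of both breeds per region, against 100 over all regions. The calculation was tested on simulated data. Calculations used SciPy 1.17.1 and pandas 2.3.3 with NumPy 2.4.6 in Python 3.11.15, and Matplotlib 3.10.9 drew the plots. Sequences of the regions are not printed, because no genome sequence was used here.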

Additional observations from a re-analysis of the deposited data

How the results depend on the processing

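The summed and the median log2 ratio of the cluster stayed below 0 under each alternative that was run, and so did the sums of MYH1, MYH2 and MYH4, although that of MYH1 moved from -0.21 to -0.41 with library totals and to -0.33 with 2 kb on both sides. With scaling by the library totals, the summed ratio was -0.74, the median -0.73 and the number of regions at least 2-fold higher in Duroc 17, while the median of all regions moved to -0.21 and their share past 2-fold to 8.73%. Without scaling these were -1.11, -1.09 and 32, with -0.57 and 20.7% over all regions. With the intervals called in Luchuan alone, they were -0.39, -0.36 and 5. The share past 2-fold over all intervals called in Luchuan was not computed, so whether this 5 exceeds it is not known. Counting every interval gave a sum of -0.49. Leaving out the flanks gave -0.66. Extending them to the next genes, which was chosen after seeing the data, gave -0.42. Without the regions inside MYH4, also chosen after seeing the data, the sum was -0.35, the median -0.37 and the number 0. A threshold of 1.5-fold gave 26 regions higher in Duroc, or 45.6% against 14.7% of all regions, and 1 higher in Luchuan, or 1.75% against 15.3%. With 4-fold these were 2, or 3.51% against 0.674%, and 0 against 0.797%. Scaling by signal or by the reads in regions, another representative interval, an overlap rule, a read minimum and a pseudocount of 5 left the sum, median and counts within their counting error or 1.5 times. Depth limits single regions, since the interval included 0 in 4 of 7 regions of MYH2 and in 11 of 16 of MYH1. The alternatives listed for MYH3, MYH8 and MYH13 gave no values, since those genes were not placed. No paired analysis was possible because the deposited counts are pooled by breed, and for the same reason leaving out a boar was not run.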
